A study of Mus musculus with 76 samples.

Results

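Fast synaptic signalling in the brain runs through receptors for glutamate, GABA and glycine, and the genes for the subunits of these receptors were followed here in the developing mouse diencephalon. Members were chosen by gene symbol alone, as the protein-coding genes of the AMPA, NMDA, kainate and delta glutamate receptors, the metabotropic glutamate receptors, the GABA-A receptors and the glycine receptors. This gave 50 genes, all of them counted, out of 56923 gene IDs in the count files and 21631 protein-coding genes among those. RNA-seq compared homozygous hs754-humanized mice, in which 5.5 kb of human sequence replaced the orthologous locus on chromosome 13, with wild type mice, both on the C57BL/6J strain, at the embryonic stages E11.5 and E17.5, counted in days. Each of the 4 groups had 4 RNA replicates, and a replicate pooled the diencephalon of 6 embryos at E11.5 or 3 embryos at E17.5 from a litter. The humanized mice are an edited line kept as homozygotes, so every cell of an embryo carries the human sequence. ChIP-seq peak lists of wild type diencephalon, 2 per mark at E11.5 and 3 at E17.5, were read at the start sites of the same genes.

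AMPA, NMDA, kainate and delta receptors are tetrameric cation channels that are opened by glutamate, except that delta receptors bind other ligands. Metabotropic glutamate receptors signal through G proteins. GABA-A and glycine receptors are pentameric chloride channels, and in immature neurons they depolarize the cell. The subunit mix sets the kinetics, calcium entry, pharmacology and anchoring of a receptor, and several subunits are known to replace each other as neurons mature, such as GluN2A for GluN2B.

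Reads on genes numbered from 16414369 to 24272569 per sample, with a median of 19300234. Levels are given as RPKM, the reads per kb of exon scaled to library size, with library sizes scaled by the TMM method over the 16 samples, and as mean ± SD over 4 replicates. The exon length joins exons over the transcripts of a gene, at 25405 bp for Grin2b, 21538 for Gria2, 8525 for Grin3a and 7478 for Gria1. Ranks, shares and ratios between genes rest on these lengths. The log2 change of a gene or a ratio between stages does not. Of the labelled tissue, 10 diencephalic genes had a summed RPKM of 379 to 514 in E11.5 wild type libraries and of 312 to 401 at E17.5. Of the 9 tested between stages, 1 was higher and 4 were lower in wild type mice, and 4 were higher and 4 lower in humanized mice. Among them was Tcf7l2, a transcription factor of thalamus and habenula, at an RPKM of 232 ± 46.0 at E11.5 against 268 ± 32.0 at E17.5 in wild type mice. Of 6 telencephalic genes tested between stages, 4 were higher and 2 lower in each genotype. Their median log2 fold change was 5.523 in wild type and 5.111 in humanized mice. Their summed RPKM was 14.4 to 20.6 in E11.5 wild type libraries and 19.5 to 33 at E17.5. One that fell was Emx1, at 0.719 ± 0.141 at E11.5 against 0.0546 ± 0.0904 at E17.5 in wild type mice. Neurod6 rose, from 0.0287 ± 0.0436 to 5.69 ± 0.416. The summed RPKM of 6 hindbrain and cerebellar genes was 0.26 to 2.59 in E11.5 wild type libraries and 0.312 to 0.728 at E17.5. Among them, Hoxa2 was at 0 in every E17.5 wild type library. That of 4 choroid plexus genes was 2.08 to 3.2 in E11.5 wild type libraries and 87 to 184 at E17.5. E17.5 wild type replicate 1 stood apart from the other 15 libraries. Over 20143 genes, its log2 levels deviated from the mean of the other 3 libraries of its group with an SD of 0.903, against 0.227 to 0.465 in the others. Its deviation had a Spearman correlation of 0.729 with the GC content of the transcript across genes, which are not independent replicates, and of 0.888 over 44 receptor genes. In the other 15 libraries the correlation over all genes lay between -0.582 and 0.562. Over the 44 receptor genes it ran from -0.913 in E17.5 wild type replicate 4 to 0.813 in E17.5 humanized replicate 1. The deviations of E17.5 wild type replicates 2 to 4 were taken against a mean that holds replicate 1, so they are not separate from it. Outside that group, the strong correlation was the 0.813 of E17.5 humanized replicate 1. The fits without E17.5 wild type replicate 1 were compared with those that hold it. Leaving it out changed no call among the 42 receptor genes tested between stages with it, and no sign of their log2 fold changes, and among the 37 of these described below the log2 fold change moved by -0.453 (Grik5) to 0.285 (Gria2). Values without it are printed for the counts, the pairs of subunits, Gria2, Grin3b and the partner genes called only without it. They are also printed for the receptor genes in which its gap to the nearest replicate was large against the range.

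From E11.5 to E17.5 nearly all receptor genes that could be tested rose in wild type diencephalon. Of 42 receptor genes that passed the filter on low counts, 37 were higher at E17.5 at 0.05 after Benjamini-Hochberg adjustment over all 18583 genes tested (quasi-likelihood test of edgeR), where 29.0% of all genes were. Grin3b and Gabrp were lower, 2 of 42, where 26.7% of all genes were. Grik5, Grm2 and Grm4 did not pass. The median log2 fold change was 3.565 over the 42 receptor genes and -0.015 over all genes tested, and the first stayed at 3.565 with Gabrp and Glra3, which had almost no reads at a stage, at the folds given for them below. The 8 genes that were not tested were Gabra6, Gabrd, Gabrr1, Gabrr2, Gabrr3, Glra1, Glra4 and Grm6, and none of them exceeded a mean RPKM of 0.303 in wild type mice. Without E17.5 wild type replicate 1, 38 of 43 rose and 2 fell, where 6968 and 7026 of all 19351 genes tested did. The RPKM summed over the 50 genes went from 44.5 ± 4.97 to 476 ± 104 in wild type and from 38.4 ± 5.44 to 535 ± 70.9 in humanized mice. In bulk tissue, more cells of a type and more RNA per cell cannot be told apart. The summed RPKM of 9 neuronal genes ranged from 513 to 601 in E11.5 wild type libraries and from 1332 to 1833 at E17.5, and that of 9 progenitor genes from 1380 to 1454 and from 402 to 729. The part of these shifts in the rise of the receptor genes was not tested.

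**Figure D1:**
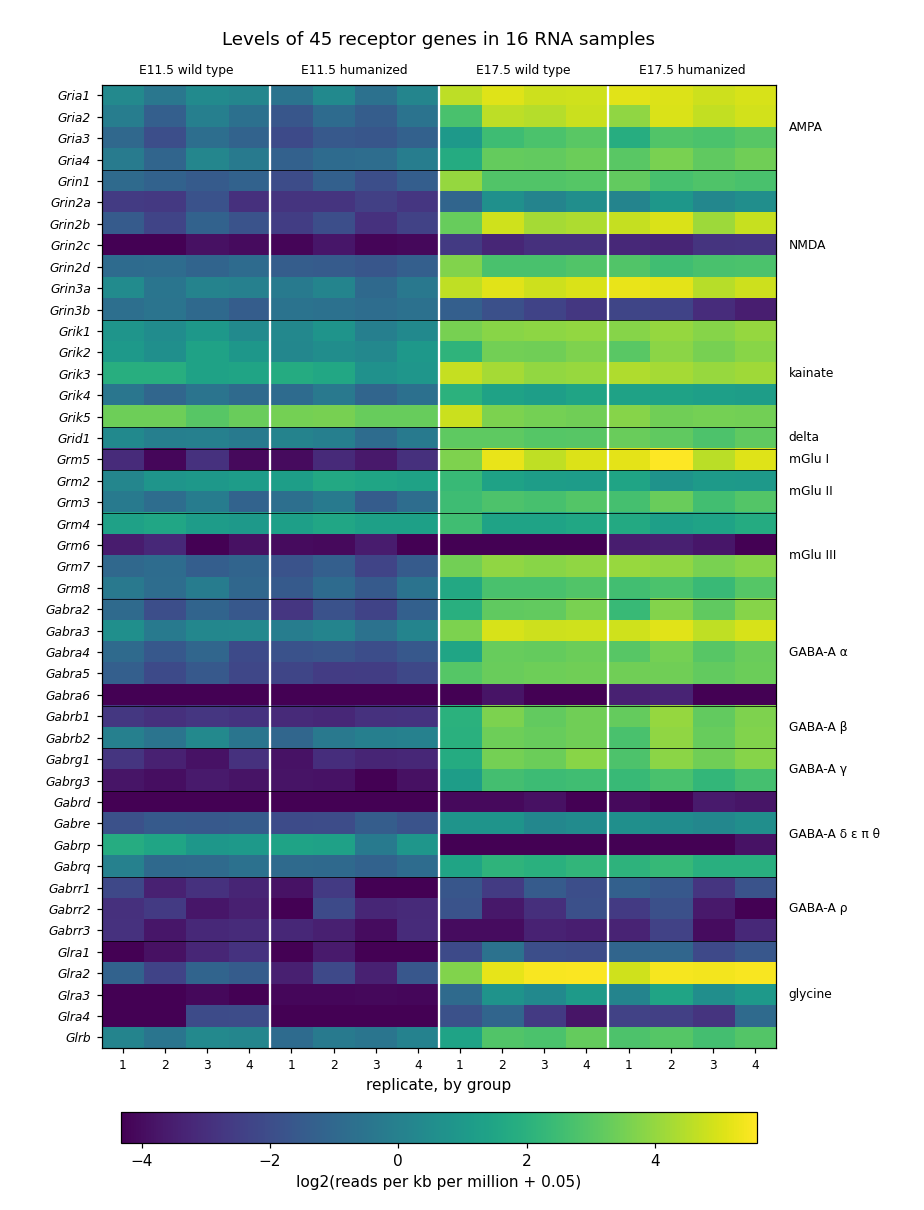
Levels of 45 receptor genes (rows, grouped by receptor class) in the 16 RNA samples (columns, by group and replicate), as log2(RPKM + 0.05). Most rows are dark in the 8 E11.5 libraries and bright in the 8 E17.5 libraries, Gabrp shows the opposite, and Grik5 is bright throughout.

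AMPA receptors carry most fast excitation, and the GluA2 subunit encoded by Gria2 makes the channel nearly impermeable to calcium. All 4 genes rose. Gria1 had the highest AMPA level at both stages, with an RPKM of 1.23, 0.716, 1.31 and 1.12 in E11.5 wild type replicates 1 to 4 and 24.1, 34.4, 28.3 and 29.2 at E17.5. Its log2 fold change was 4.71 ± 0.253 (SE), with an adjusted p of 4.52e-07. Gria2 was at 0.874, 0.347, 0.918 and 0.589 at E11.5 against 6.6, 24, 22.6 and 27.4 at E17.5. The E17.5 values did not overlap those of E11.5 for either gene, and the low E17.5 value of Gria2 was replicate 1. The log2 fold change of Gria2 was 4.87 ± 0.496 (adjusted p = 1.68e-05), and 5.16 ± 0.275 without that library. Gria4 rose least of the 4, from 0.778 ± 0.283 to 8.09 ± 3.18 (log2 fold change 3.36 ± 0.404, adjusted p = 5.24e-05, and 3.61 ± 0.238 without E17.5 replicate 1). Gria3 went from 0.4 ± 0.141 to 5.67 ± 2.65 (log2 fold change 3.81 ± 0.453, adjusted p = 4.76e-05).

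NMDA receptors need GluN1, encoded by Grin1, together with GluN2 or GluN3 subunits, and they pass calcium once depolarization lifts their magnesium block. Of the 7 genes, 6 rose and Grin3b fell. Grin3a, for a GluN3 subunit known from young neurons, had the highest NMDA level per kb of exon at both stages. It was at 1.34, 0.666, 1.03 and 0.956 at E11.5 against 24.8, 35.2, 28.2 and 32.3 at E17.5 (log2 fold change 4.90 ± 0.264, adjusted p = 4.52e-07). Grin2b, for the GluN2B subunit of young synapses, rose most. Its RPKM was 0.313, 0.157, 0.38 and 0.238 at E11.5 against 9.71, 29.3, 19.2 and 20.4 at E17.5, a log2 fold change of 6.16 ± 0.431 (adjusted p = 1.51e-06). Grin2a, for the GluN2A subunit of mature synapses, went from 0.134 ± 0.0675 to 1.11 ± 0.505 (log2 fold change 3.04 ± 0.458, adjusted p = 0.000245).

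Grin1 was measured at 0.491, 0.387, 0.311 and 0.379 at E11.5 against 16.3, 7.34, 7.49 and 7.73 at E17.5, where replicate 1 was the high value. Its log2 fold change of 4.62 ± 0.336 (adjusted p = 1.92e-06) was 4.24 ± 0.166 without that library. Grin2d, for a subunit with very slow closing, rose from 0.482 ± 0.0535 to 8.41 ± 3.06 (log2 fold change 4.11 ± 0.276, adjusted p = 1.22e-06, and 3.81 ± 0.145 without E17.5 replicate 1), again with replicate 1 highest at 13. Grin2c, known from the cerebellum, stayed near the limit of detection, with 7 reads over the 4 E11.5 libraries and 71 at E17.5, and an RPKM of 0.0815 ± 0.0232 at E17.5 (log2 fold change 3.28 ± 0.689, adjusted p = 0.00189). Grin3b, for the other GluN3 subunit, moved the opposite way. It was at 0.562, 0.646, 0.478 and 0.334 at E11.5 against 0.35, 0.215, 0.152 and 0.103 at E17.5, so that the stages overlapped through E17.5 replicate 1. The log2 fold change was -1.31 ± 0.404 (adjusted p = 0.0173), and -1.72 ± 0.38 (adjusted p = 0.00129) without that library. The call was lost without E11.5 wild type replicate 2 (adjusted p = 0.056), E17.5 wild type replicate 3 (0.0535) or E17.5 wild type replicate 4 (0.0516).

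Kainate receptors act on both sides of the synapse, and GluK5, encoded by Grik5, is a high-affinity subunit that works with GluK1, GluK2 or GluK3. Of the 5 genes, 4 rose. Grik5 was the exception and had the highest level of all 50 receptor genes at E11.5. Its RPKM was 10.6, 10.6, 8.12 and 9.998 at E11.5 against 28, 12.4, 11.3 and 10.9 at E17.5, with replicate 1 far above the rest. The log2 fold change was 0.66 ± 0.302 (adjusted p = 0.0855), and 0.21 ± 0.128 (adjusted p = 0.162) without that library. Grik5 made up 57.5% ± 4.49 of the summed kainate RPKM at E11.5 and 24.4% ± 8.8 at E17.5. Grik3 had the highest kainate level at E17.5 and rose from 3.14 ± 0.572 to 19.5 ± 4.97 (log2 fold change 2.62 ± 0.228, adjusted p = 5.56e-06). Grik1 rose most, from 1.57 ± 0.294 to 14.2 ± 1.82 (log2 fold change 3.16 ± 0.21, adjusted p = 1.16e-06). Grik2 went from 1.97 ± 0.44 to 9.7 ± 3.67 (log2 fold change 2.29 ± 0.328, adjusted p = 0.000178), and Grik4 from 0.562 ± 0.122 to 2.92 ± 0.816 (log2 fold change 2.36 ± 0.254, adjusted p = 2.37e-05). Grid1, for a delta receptor whose protein bridges synapses through secreted partners, rose from 0.975 ± 0.188 to 8.36 ± 0.443 (log2 fold change 3.09 ± 0.193, adjusted p = 8.59e-07).

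Metabotropic receptors fall into group I, which is coupled to calcium release and sits mostly after the synapse, and groups II and III, which lower cyclic AMP and often sit on nerve endings. Grm5, of group I, rose from close to 0. It was at 0.0654, 0.00615, 0.0821 and 0.00941 at E11.5, from 28 reads in all, and at 12.7, 38.4, 24.9 and 33.6 at E17.5. Its log2 fold change was 9.39 ± 0.686 (adjusted p = 1.94e-06). Of group II, Grm3 rose from 0.64 ± 0.21 to 6.68 ± 0.796 (log2 fold change 3.37 ± 0.268, adjusted p = 3.16e-06). Grm2 did not pass, with 1.11, 1.77, 1.9 and 2.18 at E11.5 against 5.03, 2.55, 2.22 and 2.2 at E17.5. Its log2 fold change was 0.77 ± 0.315 (adjusted p = 0.0575), and 0.40 ± 0.196 (adjusted p = 0.0875) without replicate 1.

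Within group III, Grm4 was the highest gene at E11.5 and did not pass the test. It was at 2.39 ± 0.358 at E11.5 against 3.5 ± 1.51 at E17.5 (log2 fold change 0.54 ± 0.273, adjusted p = 0.113), and the log2 fold change was 0.18 ± 0.149 without E17.5 replicate 1, which was at 5.76. Grm7, a receptor of presynaptic release sites, took over as the highest of the group. It rose from 0.454, 0.519, 0.342 and 0.407 to 11, 15.4, 14.1 and 15.3 (log2 fold change 5.01 ± 0.224, adjusted p = 2.87e-07). Grm8 rose from 0.65 ± 0.187 to 5.91 ± 1.92 (log2 fold change 3.18 ± 0.329, adjusted p = 1.86e-05). Grm6, known from retinal bipolar cells, had 10 reads over the E11.5 wild type libraries and 0 at E17.5.

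GABA-A receptors combine α and β subunits with γ or a rarer subunit, and the GABA sites lie between α and β. All the tested α, β and γ genes rose. Gabra3 was the highest α gene at both stages and took 46.5% ± 6.7 of the summed α RPKM at E11.5 and 43.7% ± 2.65 at E17.5. It was at 1.46, 0.807, 1.17 and 1.19 at E11.5 against 12.4, 32, 28.4 and 29.3 at E17.5 (log2 fold change 4.45 ± 0.34, adjusted p = 2.49e-06). Gabra5, which is mostly extrasynaptic, rose most among the α genes, from 0.248 ± 0.0902 to 9.82 ± 1.36 (log2 fold change 5.30 ± 0.295, adjusted p = 4.77e-07). Gabra2, typical of the embryonic brain, rose from 0.344 ± 0.123 to 8.48 ± 3.49 (log2 fold change 4.61 ± 0.413, adjusted p = 6.85e-06). Gabra4, the thalamic partner of the δ subunit, rose from 0.346 ± 0.14 to 8 ± 3.47 (log2 fold change 4.52 ± 0.468, adjusted p = 1.82e-05, and 4.81 ± 0.238 without E17.5 replicate 1). Gabra6, of cerebellar granule cells, had 0 reads at E11.5 and 1 read over the 4 E17.5 wild type libraries.

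Gabrb1 rose most of the β genes, from 0.0925 ± 0.0111 to 9.05 ± 3.63 (log2 fold change 6.60 ± 0.394, adjusted p = 6.89e-07), and Gabrb2 went from 0.878 ± 0.271 to 8.67 ± 3.26 (log2 fold change 3.29 ± 0.365, adjusted p = 2.92e-05, and 3.53 ± 0.197 without E17.5 replicate 1). Gabrg3 rose most of the γ genes, from 0.0228 ± 0.00718 to 4.9 ± 1.8 (log2 fold change 7.70 ± 0.436, adjusted p = 5.13e-07), and Gabrg1 rose from 0.0594 ± 0.0338 to 9.78 ± 4.56 (log2 fold change 7.31 ± 0.565, adjusted p = 2.65e-06).

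Among the rarer GABA-A genes, Gabrp was the clearest loss of the whole family. Its π subunit is known from uterus and other epithelia rather than from neurons. The RPKM was 3.44, 2.82, 1.85 and 1.93 in E11.5 wild type libraries, from 677 reads, and no read fell on it in the 4 wild type libraries of E17.5. Against a floor of 3 reads over the group, Gabrp was at least 222-fold lower at E17.5 (adjusted p = 6.18e-06). In humanized mice 562 reads at E11.5 stood against 1 read at E17.5, a ratio of 446 with a 95% counting interval from 79.7 to 17649. Gabrq rose from 0.633 ± 0.236 to 3.87 ± 0.845 (log2 fold change 2.60 ± 0.287, adjusted p = 2.82e-05), and Gabre rose from 0.282 ± 0.0377 to 1.46 ± 0.275 (log2 fold change 2.35 ± 0.243, adjusted p = 1.78e-05). Gabrd, for the δ subunit of tonic currents, had 0 reads at E11.5 and 4 reads at E17.5 in wild type mice. The retinal ρ genes stayed low, with mean RPKMs of 0.0881 and 0.226 for Gabrr1, 0.0644 and 0.142 for Gabrr2 and 0.0586 and 0.0278 for Gabrr3 at E11.5 and E17.5.

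Glycine receptors join α subunits with the β subunit encoded by Glrb, which binds the scaffold gephyrin, and α2 is known as the form of the embryonic brain. Glra2 rose the furthest in level. It was at 0.386, 0.148, 0.408 and 0.316 at E11.5 against 13, 37.6, 45.4 and 46.7 at E17.5 (log2 fold change 6.80 ± 0.502, adjusted p = 2.05e-06). Glrb rose from 1.03 ± 0.239 to 6.55 ± 2.83 (log2 fold change 2.66 ± 0.371, adjusted p = 0.000146), so that its share of the summed glycine receptor RPKM fell from 71% ± 7.42 to 15% ± 1.57 while that of Glra2 went from 20.9% ± 4.1 to 80.5% ± 2.67. Glra3 had 1 read over the E11.5 wild type libraries and 776 at E17.5, a ratio of 790 with a counting interval from 141 to 31234 (adjusted p = 5.02e-06). Glra1, the subunit of the adult spinal cord, reached a mean RPKM of 0.303 at E17.5, with 0.619 in replicate 2 and 0.186 to 0.212 in the others, and Glra4 reached 0.194.

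**Figure D2:**
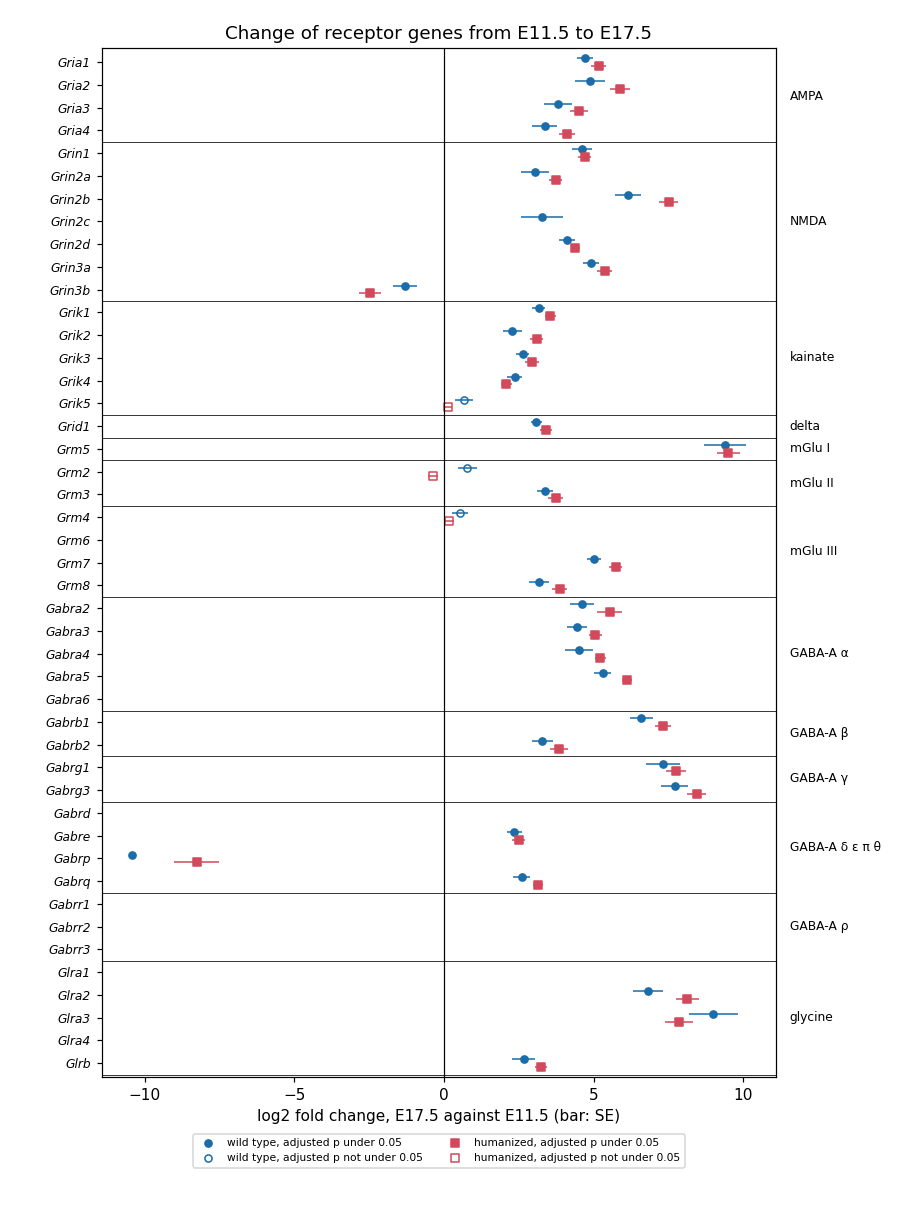
Log2 fold change of tested receptor genes from E11.5 to E17.5 (x axis, bars SE) in wild type mice (circles) and humanized mice (squares), by receptor class. Filled symbols have an adjusted p under 0.05, and nearly all lie to the right of 0; Grin3b and Gabrp lie to the left, and the wild type value of Gabrp has no error because it had 0 reads at E17.5.

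The humanized mice gave a second, separate set of 8 libraries for the same comparison. Of 41 receptor genes tested, 36 were higher at E17.5, where 38.2% of 18781 genes were, and 2 were lower, where 39.5% were. The genes that fell were again Grin3b and Gabrp, and Grik5, Grm2 and Grm4 again did not pass. The median log2 fold change was 4.38. Grin2b had a log2 fold change of 7.51 ± 0.315 (adjusted p = 1.85e-09), Grm5 of 9.51 ± 0.39 (adjusted p = 1.56e-09) and Grin3b of -2.48 ± 0.365 (adjusted p = 4.88e-05). For Grik5 it was 0.14 ± 0.116 (adjusted p = 0.281), and for Grm2 -0.36 ± 0.163 (adjusted p = 0.0627). Over the whole table fewer genes were called in wild type mice than in humanized mice. Without E17.5 wild type replicate 1, 6968 genes rose and 7026 fell of 19351 tested in wild type mice, in place of 5393 and 4963 of 18583 with it.

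Subunit switches were measured as the log2 ratio of reads per kb of 2 subunits within a sample, with 0.5 read added to each count, which does not depend on library size. In wild type mice, 4 of 7 pairs separated the 4 E11.5 from the 4 E17.5 libraries, with p = 0.0286 each in a two-sided exact permutation test, the smallest value this design allows. In humanized mice 6 of 7 did. The share of pairs of other genes that separate was not computed, so these counts are a description. Of all single genes tested, 29.0% rose and 26.7% fell in wild type mice, and 38.2% and 39.5% in humanized mice. The ratio of Grin2a to Grin2b was 0.484 at E11.5 against 0.0546 at E17.5 in wild type mice. On the log2 scale it was -1.41, -0.54, -0.70 and -1.53 at E11.5 against -4.53, -4.26, -4.17 and -3.81 at E17.5. The ratio therefore moved away from GluN2A, by -3.15 in wild type and by -3.86 in humanized mice.

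The ratio of Grin3b to Grin3a was 0.512 at E11.5 against 0.00647 at E17.5 in wild type mice, a log2 difference of -6.31, and -7.98 in humanized mice. The log2 ratio of Grm3 to Grm2 was -0.48, -1.73, -1.18 and -2.44 at E11.5 against 0.18, 1.47, 1.52 and 1.77 at E17.5. It turned from more Grm2 to more Grm3, by 2.69 in wild type and 4.14 in humanized mice. The ratio of Glra1 to Glra2 moved by -3.78 and -3.88, but Glra1 had 0 reads in some E11.5 libraries, so its value there rests on the 0.5 read added. Grin2c likewise had 0 reads in some E11.5 wild type libraries, where its ratio to Grin2d rests on the 0.5 read added. That ratio overlapped between stages in wild type mice (log2 difference -0.39, exact permutation p = 0.657). With 5 reads added in place of 0.5, the difference was -2.175 (exact permutation p = 0.0286). In humanized mice, where the lowest count was 1 read, the ratio separated (-1.59).

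In the remaining pairs E17.5 wild type replicate 1 lay apart. The log2 ratio of Grik5 to Grik2 was 2.39, 2.84, 1.68 and 2.44 at E11.5 against 2.69, 0.18, 0.05 and -0.21 at E17.5, an overlap through replicate 1 alone (exact permutation p = 0.114). In humanized mice it moved by -2.95 without overlap. The log2 ratio of Gria2 to Gria1 was -0.50, -1.05, -0.51 and -0.93 at E11.5 against -1.87, -0.52, -0.32 and -0.09 at E17.5 in wild type mice, with replicate 1 the lowest (log2 difference 0.05, exact permutation p = 0.943). In humanized mice it moved by 0.68 (exact permutation p = 0.0857). Without E17.5 wild type replicate 1, the log2 differences in wild type mice were -2.331 for Grik5 to Grik2, 0.435 for Gria2 to Gria1, -3.038 for Grin2a to Grin2b, -6.694 for Grin3b to Grin3a, 3.045 for Grm3 to Grm2, -4.048 for Glra1 to Glra2 and -0.326 for Grin2c to Grin2d.

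**Figure D3:**
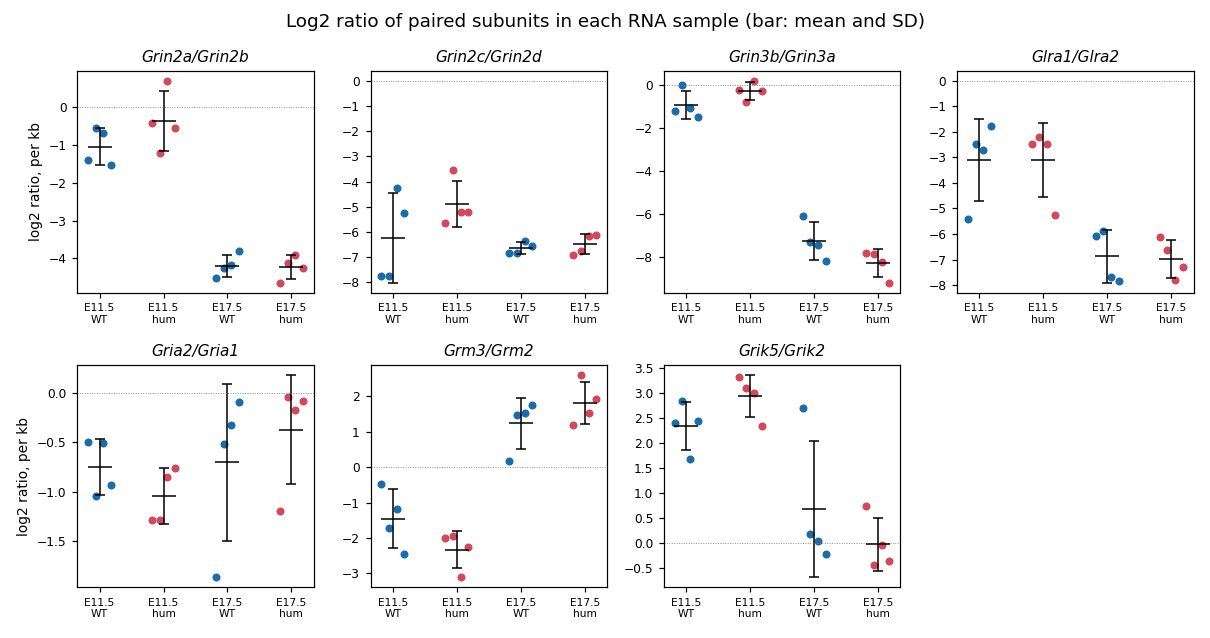
Log2 ratio of reads per kb for 7 subunit pairs (panels) in each RNA sample (points), with the mean and SD of the 4 replicates of a group; blue, wild type (WT), red, humanized (hum). Grin2a/Grin2b and Grin3b/Grin3a drop from E11.5 to E17.5, Grm3/Grm2 rises from below 0 to above 0, and in Grik5/Grik2 a single E17.5 wild type point stays at 2.69.

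Genes that work with these receptors mostly rose as well. Of all 18583 genes tested in wild type mice, 29.0% rose and 26.7% fell. All 14 genes for auxiliary subunits of AMPA and kainate receptors were tested in wild type mice, and 13 rose. The largest rise was that of Shisa9, an AMPA receptor partner, from 0.275 ± 0.161 to 25.2 ± 2.41 (log2 fold change 6.50 ± 0.392, adjusted p = 6.98e-07). Cacng7, the only one that did not pass, was at 23.9 ± 2.57 and 23.9 ± 13.4 (adjusted p = 0.979). Of 12 excitatory scaffold genes 9 rose and 1 fell. Dlgap1 rose from 0.298 ± 0.104 to 8.86 ± 1.74 (log2 fold change 4.88 ± 0.301, adjusted p = 7.99e-07), and Homer3, for a scaffold that binds group I metabotropic receptors, fell from 7.25 ± 1.13 to 1.76 ± 0.728 (log2 fold change -2.06 ± 0.278, adjusted p = 0.00012). Of 6 inhibitory scaffold genes 5 rose, with Iqsec3 the furthest, from 1.04 ± 0.266 to 6.31 ± 1.48 (log2 fold change 2.59 ± 0.241, adjusted p = 8.92e-06).

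The GABA-B receptor genes both rose, and Gabbr2, for the subunit that couples to G proteins, went from 0.711 ± 0.128 to 26.5 ± 2.8 (log2 fold change 5.21 ± 0.217, adjusted p = 2.87e-07). Of 7 genes for glutamate synthesis and transport 5 rose and 1 fell. Slc1a1, a neuronal glutamate transporter, rose from 0.484 ± 0.0806 to 17 ± 1.54 (log2 fold change 5.12 ± 0.214, adjusted p = 2.87e-07), and Slc17a8, the vesicular transporter VGLUT3, fell from 2.39 ± 0.918 to 1.27 ± 0.415 (log2 fold change -0.93 ± 0.338, adjusted p = 0.037). All 6 tested of 7 genes for GABA and glycine synthesis and transport rose. Slc6a11, the GABA transporter GAT3, went from 0.372 ± 0.0783 to 41.2 ± 17.9 (log2 fold change 6.77 ± 0.368, adjusted p = 4.77e-07). In humanized mice Homer3 had a log2 fold change of -2.72 ± 0.161 (adjusted p = 2.25e-08). There Cacng7 fell (-0.60 ± 0.107, adjusted p = 0.00025), as did Gabarap, for a trafficking partner of GABA-A receptors (-0.94 ± 0.111, adjusted p = 8.05e-06). Slc17a8 did not pass in humanized mice (0.04 ± 0.231, adjusted p = 0.867).

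Without E17.5 wild type replicate 1, 46 of 47 partner genes were called between stages in wild type mice in place of 42, and all 42 were among them. Over all genes, 13994 of 19351 tested were called in that fit, in place of 10356 of 18583. The genes gained were Cacng7 (log2 fold change -0.49 ± 0.132, adjusted p = 0.00476) and Gabarap (-0.64 ± 0.135, adjusted p = 0.000948), which were lower at E17.5, and the scaffold gene Homer1 (0.61 ± 0.223, adjusted p = 0.0252) and the glial glutamate transporter gene Slc1a2 (0.56 ± 0.188, adjusted p = 0.0179), which were higher.

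Between genotypes no receptor gene passed the adjusted test at either stage. At E11.5, 0 of 37 tested receptor genes were called by edgeR and 0 by DESeq2, and 0% of all 17816 genes were called by edgeR, against 2 genes by DESeq2. At an unadjusted p under 0.05 there were 7 of 37 receptor genes, where 5.94% of all genes lay. The number without the correction depended on single libraries, as did the share of all genes. It was 16 without E11.5 wild type replicate 2, where 21.6% of all genes lay, and 15 without E11.5 humanized replicate 4, where 21.9% did. It was 4 without E11.5 humanized replicate 3 or without E11.5 wild type replicate 1, where 3.01% and 2.61% did. The fitted values leaned to lower levels in humanized mice, with 32 of 37 below 0 and a median log2 fold change of -0.47, against 0.00 over all genes. Over the fits that left out a library the median stayed between -0.57 and -0.36. These genes vary together between libraries, so their number below 0 is a description.

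The 5 receptor genes with the lowest unadjusted p at E11.5 were Grin2d, Grm2, Grin2b, Grm7 and Gabra5, and all 5 had an adjusted p of 0.577. Grin2d was at 0.506, 0.524, 0.404 and 0.495 in wild type and at 0.332, 0.313, 0.263 and 0.351 in humanized libraries, which did not overlap (log2 fold change -0.63 ± 0.17, unadjusted p = 0.0035). Grm2 was the reverse, at 1.11, 1.77, 1.9 and 2.18 in wild type and at 2.27, 3.09, 2.76 and 2.59 in humanized libraries, again without overlap (log2 fold change 0.60 ± 0.193, unadjusted p = 0.0107). Grin2b was at 0.313, 0.157, 0.38 and 0.238 in wild type and 0.123, 0.212, 0.0815 and 0.145 in humanized libraries, with overlap (log2 fold change -0.97 ± 0.32, unadjusted p = 0.0117). The log2 fold changes of Grm7 and Gabra5 were -0.73 ± 0.266 and -0.80 ± 0.299. The summed RPKM of the 9 neuronal genes was 513 to 601 in wild type and 421 to 639 in humanized libraries, and 7 of the 9 had a fitted log2 fold change below 0 (median -0.18). The summed RPKM of 6 globin genes, which mark red blood cells, was 1860 to 4018 in wild type and 3173 to 6169 in humanized libraries, with all 6 above 0 (median 0.65). The part of these in the lower receptor levels was not tested.

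At E17.5, 0 of 42 receptor genes were called by edgeR and 0 by DESeq2, as were 0% of all 18763 genes by edgeR and 1 gene by DESeq2. At an unadjusted p under 0.05 there was no receptor gene either, where 1.10% of all genes lay. The median log2 fold change of the receptor genes was 0.16 with 33 of 42 above 0, and 0.01 with 21 of 42 above 0 without E17.5 wild type replicate 1. Of the interaction of genotype and stage, 0 of 44 receptor genes and 0% of 20234 genes were called by edgeR, and no gene by DESeq2. At an unadjusted p under 0.05 there were 4 of 44, where 7.96% of all genes lay. They were Grm2 (-1.13 ± 0.369 on the log2 scale), Grin2b (1.34 ± 0.468), Gabra5 (0.83 ± 0.305) and Grm7 (0.75 ± 0.295), each with an adjusted p of 0.462. Without E17.5 wild type replicate 1, 6 of 44 lay under 0.05, where 4.21% of all genes did, and none was called. Leaving out any other library gave 3 to 13 of 44, where 3.32% to 18.2% of all genes did. Grin2b at E17.5 was at 9.71, 29.3, 19.2 and 20.4 in wild type and at 26.5, 32.6, 17.3 and 27 in humanized libraries, with overlap. A difference that misses the threshold here does not show that the genotypes are alike.

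**Figure D4:**
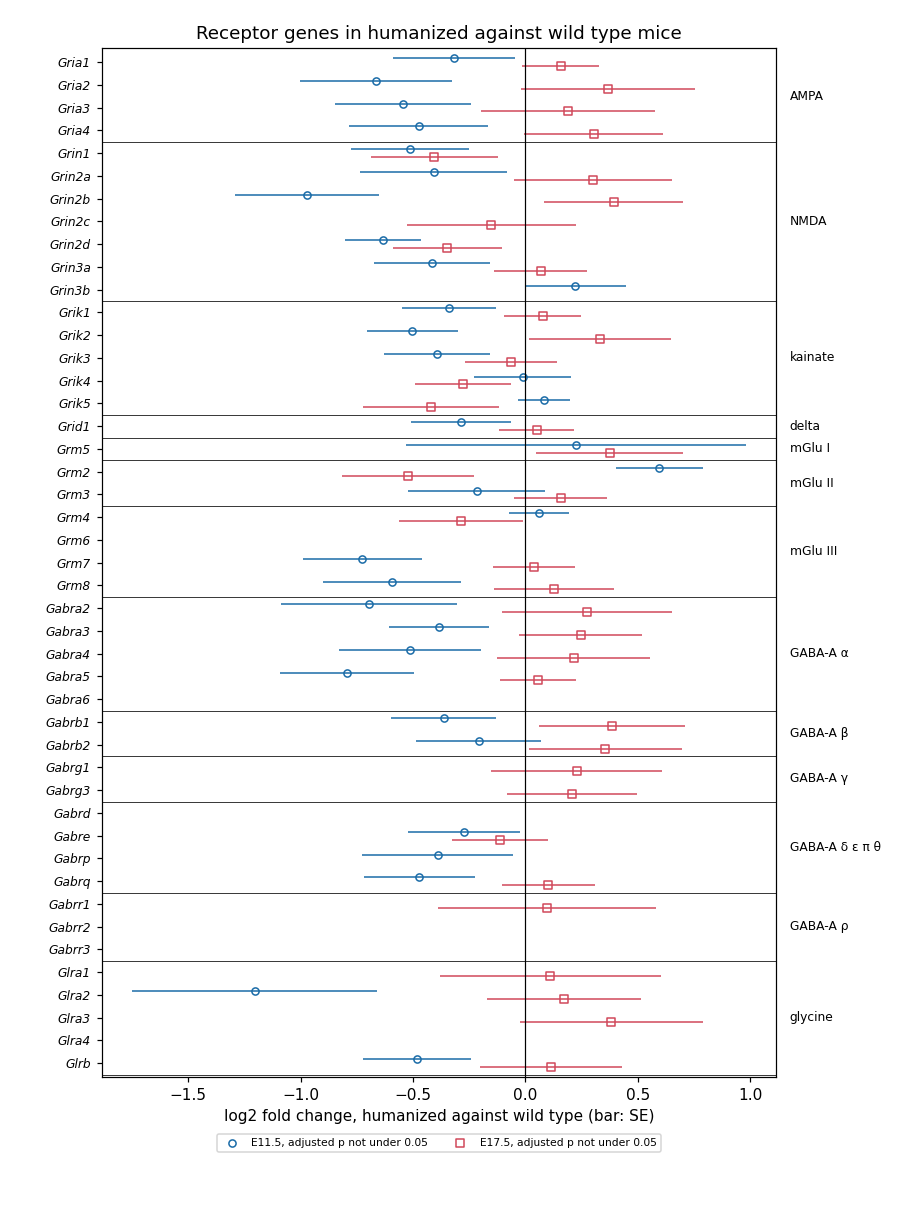
Log2 fold change of tested receptor genes in humanized against wild type mice (x axis, bars SE) at E11.5 (blue circles) and E17.5 (red squares). All symbols are open because no adjusted p was under 0.05; 28 of the 33 E11.5 values drawn lie left of 0 and 28 of the 37 E17.5 values drawn lie right of it.

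H3K4me3 marks the start sites of active or poised genes, H3K27ac marks active promoters and enhancers, and H3K27me3 is laid down by Polycomb complexes at silenced genes. Many developmental genes carry H3K4me3 and H3K27me3 together, mostly at promoters rich in CpG dinucleotides. A promoter was taken as the 1000 bp on either side of the start of the canonical transcript, and counted as marked when a peak overlapped it by at least 1 bp in every wild type list of a stage. The 250 bases upstream of the start are shown for 5 genes of different states, from the mm39 genome on the strand of the gene, with every CpG in capitals. Grin1 (chr2:25209213-25209462, minus strand) and Grin2b (chr6:136150302-136150551, minus strand) had both H3K4me3 and H3K27me3 at both stages and gained H3K27ac. Gria2 (chr3:80710539-80710788, minus strand) lost H3K27me3. Grin2c (chr11:115158526-115158775, minus strand) kept both marks without H3K27ac, and Gabrp (chr11:33528984-33529233, minus strand) had no H3K4me3 in any list.
Grin1: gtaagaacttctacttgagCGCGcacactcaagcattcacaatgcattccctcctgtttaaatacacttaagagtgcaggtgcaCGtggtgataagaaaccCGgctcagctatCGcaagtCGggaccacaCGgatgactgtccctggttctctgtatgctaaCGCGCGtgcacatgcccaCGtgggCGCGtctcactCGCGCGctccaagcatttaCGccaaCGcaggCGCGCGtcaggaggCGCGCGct
Grin2b: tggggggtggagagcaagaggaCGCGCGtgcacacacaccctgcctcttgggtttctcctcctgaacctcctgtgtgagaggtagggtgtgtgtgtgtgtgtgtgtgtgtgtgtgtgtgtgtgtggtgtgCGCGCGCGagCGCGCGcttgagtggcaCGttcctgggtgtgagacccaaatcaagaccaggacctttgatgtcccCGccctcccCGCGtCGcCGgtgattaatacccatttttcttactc
Gria2: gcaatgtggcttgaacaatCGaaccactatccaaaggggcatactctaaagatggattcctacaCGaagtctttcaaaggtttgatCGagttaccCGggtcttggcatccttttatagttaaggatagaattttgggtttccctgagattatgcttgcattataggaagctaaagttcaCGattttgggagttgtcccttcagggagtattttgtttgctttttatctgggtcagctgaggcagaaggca
Grin2c: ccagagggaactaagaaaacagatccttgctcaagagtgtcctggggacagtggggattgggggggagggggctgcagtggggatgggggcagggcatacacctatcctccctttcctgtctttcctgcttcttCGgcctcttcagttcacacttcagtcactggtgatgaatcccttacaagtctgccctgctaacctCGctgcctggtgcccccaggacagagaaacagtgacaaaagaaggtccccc
Gabrp: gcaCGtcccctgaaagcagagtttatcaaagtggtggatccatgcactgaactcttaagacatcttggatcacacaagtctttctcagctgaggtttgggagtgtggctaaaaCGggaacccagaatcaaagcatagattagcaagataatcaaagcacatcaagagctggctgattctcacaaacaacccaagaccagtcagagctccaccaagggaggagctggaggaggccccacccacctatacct

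These windows held 24 CpGs for Grin1, 16 for Grin2b, 5 for Gria2, 2 for Grin2c and 2 for Gabrp. The same window held at least 1 CpG in 48 of 50 receptor genes and in 92.6% of 21618 protein-coding genes, with medians of 9 and 8. The GC box GGGCGG, a binding motif of Sp1 that itself contains a CpG, was found on either strand in 19 of 50 and in 36.4% of all. Over 500 bp on either side of the start, 15 of 50 receptor genes were CpG-rich, with GC at 50% or more and CpG at 0.6 or more of the number expected from base composition, as were 46.1% of all protein-coding genes. By this measure Grin1 and Gria2 were CpG-rich, and Grin2b, Grin2c and Gabrp were not.

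H3K4me3 was present at 44 of 50 receptor promoters at E11.5 and at 44 of 50 at E17.5, where 63.7% and 63.8% of all protein-coding promoters had it. No receptor gene had the mark in every list of one stage and in none of the other, where 0.416% of all promoters lost it and 0.675% gained it. The 6 without it at either stage were Gabra6, Gabrp, Gabrr1, Gabrr2, Gabrr3 and Glra4. Of these, Gabrp was the only one with a mean RPKM above 0.1 in E11.5 wild type libraries, and it had no H3K4me3 peak at any of its annotated protein-coding starts either. All 15 CpG-rich receptor promoters had H3K4me3 at E11.5, as did 98.4% of all CpG-rich promoters. Of the 35 that were not CpG-rich 29 had it, where 33.9% of all such promoters did.

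H3K27me3 was present at 32 of 50 receptor promoters at E11.5, where 19.4% of all protein-coding promoters had it, and at 22 of 50 at E17.5, where 19.2% had it. All of these also had H3K4me3, so that both marks were found at 32 of 50 at E11.5, where 17.7% of all promoters had both, and at 22 of 50 at E17.5, where 16.4% had both. Of the 15 CpG-rich receptor promoters 14 had both at E11.5, where 24.2% of all CpG-rich promoters did. Of the 35 that were not CpG-rich 18 had both, where 12.2% of all such promoters did. In a tissue of many cell types, marks on the same chromosome copy and marks in different cells cannot be told apart. Gria2 and Grm3 had H3K27me3 in every E11.5 list and in no E17.5 list, 2 of 50, where 1.69% of all promoters did. The reverse was found for 0 of 50, where 2.54% of all promoters did. For Gria2 the fold enrichment was 4.52 and 5.3 in the E11.5 lists. H3K27me3 peaks were weak, and with a -log10 q of 5 or more 25 and 13 receptor promoters counted as marked at E11.5 and E17.5, where 12.9% of all promoters did at each stage. The E17.5 lists were longer, with 27452 to 43700 peaks against 13850 and 19166.

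Where the mark stayed, its enrichment mostly fell. Of the 22 receptor promoters with H3K27me3 in every list of both stages, 16 had lower fold enrichment in all 3 E17.5 lists than in both E11.5 lists, and the median ratio of E17.5 to E11.5 was 0.622. Over all 3332 promoters marked in every list, 45.5% were lower in this way and the median ratio was 0.855. Grin2b had the lowest ratio, with 10.7 and 8.47 at E11.5 against 2.87, 3.02 and 2.32 at E17.5. Some genes that stayed near 0 in RNA had similar values at both stages. Grin2c had 11.2 and 10.7 at E11.5 against 11.7, 9.22 and 9.15 at E17.5, Gabrd had 10.2 and 6.39 and then 9.47, 7.65 and 7.94, and Glra1 had 6.31 and 6.06 and then 7.08, 6.19 and 6.38. Grin1, which rose in RNA, also overlapped between stages, with 8.48 and 6.19 at E11.5 against 8.02, 4.14 and 4.55 at E17.5. Grin3b, which fell in RNA, was the single receptor gene with higher enrichment in all E17.5 lists, with 8.09 and 7.51 and then 10.1, 8.45 and 8.33.

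H3K27ac was gained at many receptor promoters. It was present at 17 of 50 receptor promoters at E11.5, where 47.4% of all promoters had it, and at 37 of 50 at E17.5, where 57.2% had it. In 19 of 50 it was in every E17.5 list and no E11.5 list, where 7.54% of all promoters gained it in this way, and in 0 of 50 it was lost, where 0.532% of all promoters lost it. The E17.5 H3K27ac lists were longer, with 62720 to 77419 peaks against 32418 and 36150. Among the 19 genes were Gabra4, Gabra5, Gabrb1, Gabrg3, Glra2, Glra3, Gria1, Gria3, Grid1, Grik1, Grik3, Grin1, Grin2a, Grin2b, Grin3a, Grm5, Grm7 and Grm8. The RNA of all 19 had risen, but so had that of 37 of the 42 receptor genes tested. The share with risen RNA among all promoters that gained the mark was not computed. For Grin2b the E17.5 fold enrichment was 26.6, 41.1 and 41.2, and for Gria2, which was already marked at 3.99 and 4.55 at E11.5, it was 41.2, 55.2 and 46.7. Of the 17 receptor promoters marked in every list of both stages, all 17 had higher enrichment in each E17.5 list than in both E11.5 lists, with a median ratio of 4.49, where 78% of 10057 promoters did and the median ratio was 2.03. The antibody used for this mark also binds acetylated H2B, per the study's methods.

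H3K4me3 enrichment at promoters already marked at E11.5 was also higher at E17.5. All 3 E17.5 lists exceeded both E11.5 lists at 36 of 44 receptor promoters, with a median ratio of 1.68, where 34.4% of 13565 promoters did and the median ratio was 1.14. Grin1 had the largest ratio, with 12.6 and 12 at E11.5 against 60.5, 57 and 60.7 at E17.5. CTCF, which anchors chromatin loops, was mapped at E17.5 and was found at 22 of 50 receptor promoters, where 33.7% of all promoters had it. Its strongest peaks were at Grm8, with a fold enrichment of 66.7, 59.8 and 36.4, and at Grik4, with 66.5, 55.4 and 49.2.

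**Figure D5:**
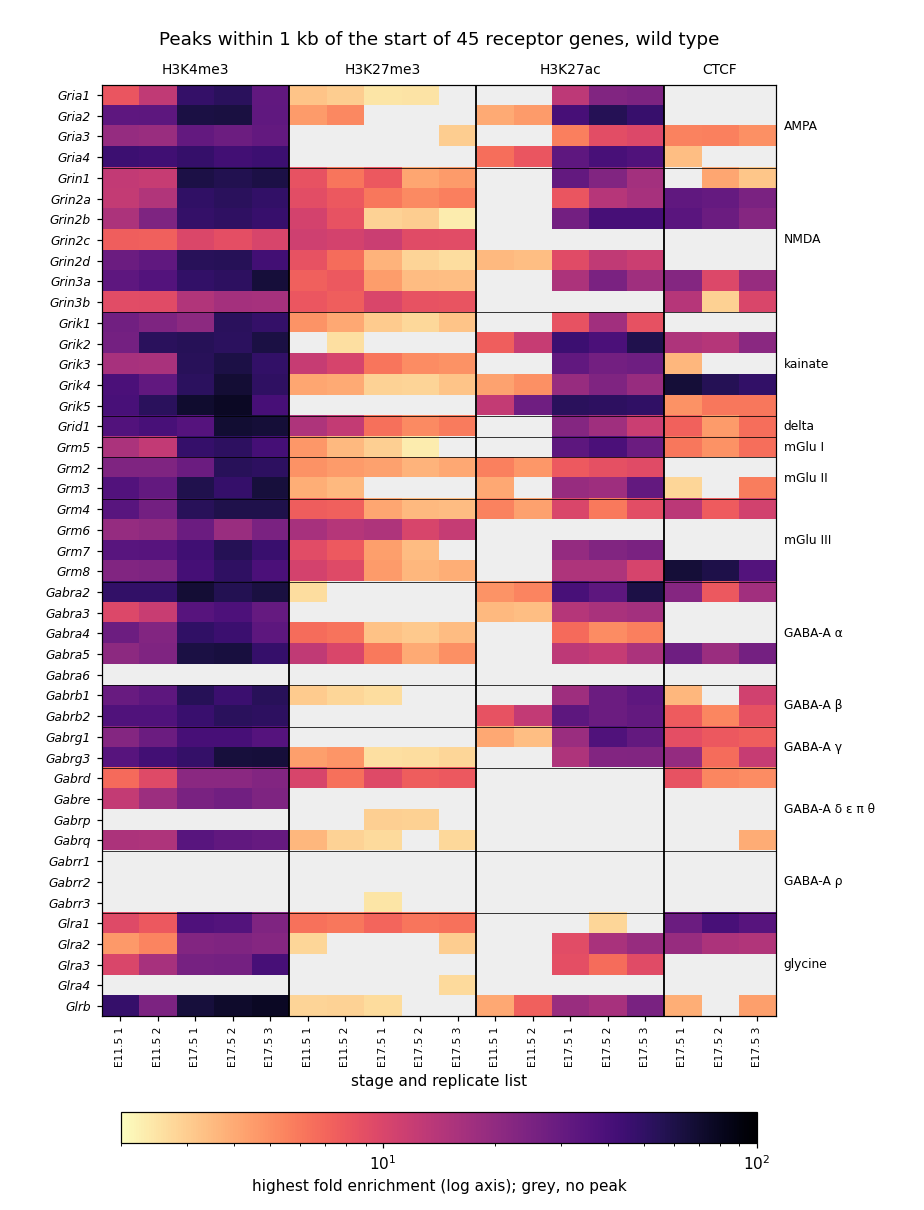
Highest fold enrichment of a peak within 1 kb of the start of 45 receptor genes (rows, by class) in each wild type peak list (columns, by mark, stage and replicate), on a log colour axis; grey, no peak. H3K4me3 is present at 39 rows in every list, H3K27me3 thins out and pales at E17.5, and H3K27ac goes from 13 to 32 rows.

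Grouped by promoter state, levels at E17.5 differed in range, here over the genes described above. Over all states, 37 of 42 tested receptor genes had risen, where 29.0% of all genes tested had. The share that rose among all protein-coding genes of a state was not computed, so the counts by state are a description. The 17 genes with both marks at both stages and H3K27ac in every E17.5 list had wild type RPKMs from 1.11 to 30.1 at E17.5, and 15 of 17 had risen. The 10 with both marks at E11.5 and H3K27me3 in some or none of the E17.5 lists ranged from 3.87 to 29, and all 10 had risen. The 8 with H3K4me3 and no H3K27me3 in any list ranged from 1.37 to 25.6, and 7 of them had risen. The 4 with H3K27me3 in only some lists, Gabra2, Glra2, Gria3 and Grik2, ranged from 5.67 to 35.7, and all 4 had risen. In the 5 with both marks at both stages but H3K27ac not in every E17.5 list, which were Gabrd, Glra1, Grin2c, Grin3b and Grm6, no RPKM exceeded 0.303. In the 6 without H3K4me3 none exceeded 0.226 at E17.5.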

How the data were processed

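RNA was measured in 16 samples and wild type chromatin in 18 peak lists. Per the labels and the study's methods, the authors aligned polyA-selected, paired reads to mm39 with STAR 2.7.9a and deposited counts per gene on the basic GENCODE annotation, without strand and for each strand. Between 48.12% and 58.39% of reads fell on no gene, and these were left out. ChIP reads were aligned with Bowtie2 2.4.2, duplicates and multi-mapping reads were removed, and MACS2 2.2.7.1 called peaks in each replicate. The deposited lists give a fold enrichment, the -log10 of the p-value and of the q-value, and a score from the q-value. Those of H3K27me3 follow the broad peak format, and how that mark was called is not given in the sources used here. Read depth behind a peak is unknown, and counting intervals cover counting error only.

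The members and lists were chosen with earlier results of these data known. Gene positions and exon lengths came from GENCODE M39 on the same build, and 56236 of 56923 gene IDs matched. edgeR 4.0.16 in R 4.3.3 tested the unstranded counts by quasi-likelihood, after its filterByExpr filter and TMM scaling, on the 8 samples of each comparison, or on all 16 for the interaction. An adjusted p under 0.05 was called. Pair ratios were compared with two-sided exact permutation tests, 7 pairs in each genotype without adjustment. Replicates came from separate litters. Alternatives were DESeq2 1.42.0, its size factors, no filter, the strand column, a replicate block, a fit of all 16 samples, a test against a 2-fold change, other pseudocounts, peak thresholds and windows, and leaving out each library. Of the 50 members, 45 are named with their level; results for the other 5, which stay in the counts, and for pairs with them are not reported here. Described in full were, for each class, the genes with the highest level, the largest rise and the largest fall, and the members of each pair; between genotypes, up to 5 with the lowest p under 0.05; of each partner list, the called gene with the largest rise and fall. Overlaps were computed in Python 3.11.15 (scipy 1.17.1, pandas 2.3.3, numpy 2.4.6), and the scripts were tested on simulated data. Protein sequences were not used here.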

Additional observations from a re-analysis of the deposited data

Results flagged for a closer look

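In groups of 4 replicates, 14 of 177 sets of values held a library far from the other 3, with a gap to the nearest value that exceeded Dixon's critical share of the whole range. Chance alone gives about 1 in 20 such sets. Of the 14, 9 were E17.5 wild type replicate 1, the library whose levels over all genes moved most with GC content.

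In that library RPKM was lowest for Gabra4 at 2.81 (nearest 9.46), Gabrb2 at 3.81 (9.76) and Gria4 at 3.37 (9.21). It was highest for Grik5 at 28.0 (12.4), Grin1 at 16.3 (7.73), Grin2d at 12.9 (7.49), Grm2 at 5.03 (2.55) and Grm4 at 5.76 (2.92). The log2 ratio of Grik5 to Grik2 in it was 2.693, with the nearest at 0.183. Each of these genes is given with its log2 fold change between stages without this library in the results.

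The other 5 sets were in other libraries. Glra2 was at an RPKM of 29.6 in E17.5 humanized replicate 1 (nearest 42.6). Glra1 at 0.619 in E17.5 wild type replicate 2 (0.212) and Glra4 at 0.487 in E17.5 humanized replicate 4 (0.146) rest on few reads. The log2 ratio of Glra1 to Glra2 was -5.262 in E11.5 humanized replicate 4 (-2.455), and that of Gria2 to Gria1 was -1.197 in E17.5 humanized replicate 1 (-0.167).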

How the results depend on the processing

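Between stages, the number of receptor genes called lay between 38 and 43 in wild type and between 38 and 44 in humanized mice over all alternatives. Leaving out a library gave 39 to 40 and 38 to 42. The number of all genes called lay between 4565 of 18583 tested and 13994 of 19351 in wild type mice. In humanized mice it lay between 7480 of 18781 and 17572 of 36798. Of 1093 values of the genes described under these alternatives, 1078 kept their direction and side of the threshold. The 4 lost calls were all Grin3b in wild type mice, with adjusted p-values (edgeR) of 0.257 against a 2-fold minimum change and 0.0516 to 0.056 without a library. The 11 gained calls were Grm2, Grik5 and Grm4, and Grm2 was gained in opposite directions, as a rise in wild type mice in 6 alternatives (log2 fold changes 0.759 to 0.906, with DESeq2 an adjusted p of 0.0351) and as a fall in humanized mice in 3 (-0.415 to -0.508, edgeR, lowest adjusted p = 0.00976). Between genotypes and for the interaction no receptor gene was called under any alternative. Of 154 pair ratio values, 137 kept direction and side, 10 were no longer under 0.05, 1 newly was and 6 reversed. All 10 were under the replicate block, where the smallest possible sign-flip p is 0.125. They reached that value, so this setting could not have kept them under 0.05. The 1 newly under it was Grin2c to Grin2d in wild type mice with 5 reads added. The reversed log2 differences, both of pairs that overlapped between stages in wild type mice, were 0.270 for Grin2c to Grin2d without E11.5 wild type replicate 3, and, for Gria2 to Gria1, those without E11.5 wild type replicate 2 (-0.054) or 4 (-0.015) or E17.5 wild type replicate 2 (-0.014), 3 (-0.079) or 4 (-0.156); the cause was not tested. Leaving out a library, these differences ranged from -0.888 to 0.270 and from -0.156 to 0.435. With a -log10 q of 5 or more, H3K27me3 marked 13 receptor promoters at E17.5 in place of 22.

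Correlations of the deviations of same-numbered samples were from -0.550 to 0.394 between stages, from 0.034 to 0.174 between genotypes at E11.5 and from 0.090 to 0.584 at E17.5, and in no comparison were all 4 over 0.1, so the numbers were not taken to pair the samples. With the replicate block, 40 receptor genes were called between stages in wild type and 41 in humanized mice, and 0 between genotypes at E11.5, at E17.5 and for the interaction; genes at an unadjusted p under 0.05 went from 207 to 765 at E17.5, with 0 and 2 receptor genes, and from 1610 to 2028 for the interaction, with 4 and 12. At E17.5, replicates 1 and 2 correlated best with their own number and 3 and 4 did not. With the pairing, 4 wild type and 7 humanized pair ratios reached 0.125, the smallest exact sign-flip p of 4 pairs. At low counts, genes with under about 20 reads in a stage have ratios that rest on the added reads.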
